A study of Homo sapiens with 8 samples.

Results

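The comparison described here set 2 untreated states side by side, the KMS11 and the H929 cell lines in ethanol, and asked what told these lines apart before any statin was given. Members were the 4 libraries labelled with ethanol (2 of KMS11 and 2 of H929) among the 8 libraries of the series. Both are established human multiple myeloma (MM) lines that carry t(4;14), each derived from a different patient, and each stands for 1 tumour only. All 4 cultures grew in RPMI medium with serum and received ethanol, the solvent of fluvastatin, for 24 h. The other 4 libraries came from the same lines after 24 h in 2 µM fluvastatin, a statin, and were used to share the estimate of the spread and to look at the line difference in libraries whose values did not enter the ethanol means. Total RNA depleted of ribosomal RNA was sequenced, and the authors deposited for each gene an expected count, which is the number of fragments RSEM assigned to it, and a length-scaled TPM value.

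MM is a cancer of plasma cells, the antibody-secreting end stage of B cell differentiation. Plasma cells shut down much of the B cell programme, including MHC class II, and build up the endoplasmic reticulum (ER) under transcription factors such as IRF4, PRDM1 and XBP1. The t(4;14) translocation joins the immunoglobulin heavy chain (IGH) locus to chromosome 4 and so raises NSD2, a histone methyltransferase also known as MMSET, and often FGFR3, a receptor tyrosine kinase. Lines that share this event can still differ in later lesions of the RAS, p53 and NF-κB pathways.

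Total expected counts were 41704958 and 40470834 in the KMS11 libraries and 34433011 and 29382964 in the H929 libraries. Between replicates the log2 ratio of a gene had an SD of 0.126 in KMS11 and 0.179 in H929 over 5555 well-expressed genes, and the replicates of a line differed by more than counting error (chi-square per degree of freedom 9.97 and 18.1). The first principal component of all 8 libraries separated the lines and held 87.1% of the variance. Levels compared between lines are CPM, counts scaled to a common library size by TMM, and levels compared between genes of 1 line are TPM. Differences between lines were not read from TPM except as a named alternative, because its make-up differed. Protein-coding genes took 46.8% and 44.9% of all TPM in KMS11 and 34.8% and 34.2% in H929. The 7SL RNAs RN7SL1 and RN7SL2 took 20.8% and 22.6% in KMS11 and 30.8% and 30.7% in H929. TPM values of both lines given side by side below show presence and not the size of a difference. Line, culture history and any batch between the lines cannot be told apart in this design.

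Most plasma cell markers were expressed in both lines, but CD38 was close to 0 in KMS11 (0.01 and 0.04 TPM, with 23.9 and 21.2 TPM in H929). SLAMF7, PRDM1, XBP1 and IRF4 were expressed in both and at least 2-fold higher in H929, while POU2AF1 did not pass the test. SDC1 (CD138), the syndecan that defines plasma cells, had 43.5 and 40.3 TPM in KMS11 and 122 and 97.7 TPM in H929. TNFRSF17 (BCMA) had 198 and 227 TPM and 414 and 415 TPM, and JCHAIN, which joins antibody units into polymers, 5508 and 5973 TPM and 5049 and 4164 TPM. Among markers of other blood cells, 16 of 17 T and NK cell markers, 13 of 14 monocyte and macrophage markers and 13 of 14 erythroid and megakaryocyte markers stayed under 1 TPM in all 4 libraries. Their summed level was at most 3.39 TPM, 2.59 TPM and 6.37 TPM in any library, and 5 markers of each list were at 0 in all 4. The exceptions were CD3E, CD68 and EPOR. Of the few tested members, CD8A, LCK, CD7, ZAP70 and ITGAM were at least 2-fold higher in KMS11, and CD3G, CD3E, CD68, MARCO, VCAN and EPOR in H929. In bulk RNA, fewer cells that express a gene and less RNA per cell cannot be told apart.

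Most of the transcriptome differed between the lines. Of 13129 protein-coding genes tested, 9454 (72.0%) differed at an adjusted p under 0.05, 4680 of them higher in KMS11 and 4774 higher in H929. The median difference over all genes tested, KMS11 minus H929, was -0.02 on the log2 scale, and the median size was 0.77. At least 2-fold differences past the threshold are used below as the measure for gene lists. They numbered 2290 genes higher in KMS11 (17.4% of genes tested) and 2848 higher in H929 (21.7%). Counts of list members below stand against these shares. Differences of at least 8-fold were found for 753 genes higher in KMS11 and 872 higher in H929. On a TPM scale (limma on log2(TPM + 1)), 72.8% of the calls were higher in KMS11 in place of 49.5%, and the median of all genes moved to 0.315.

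**Figure D1:**
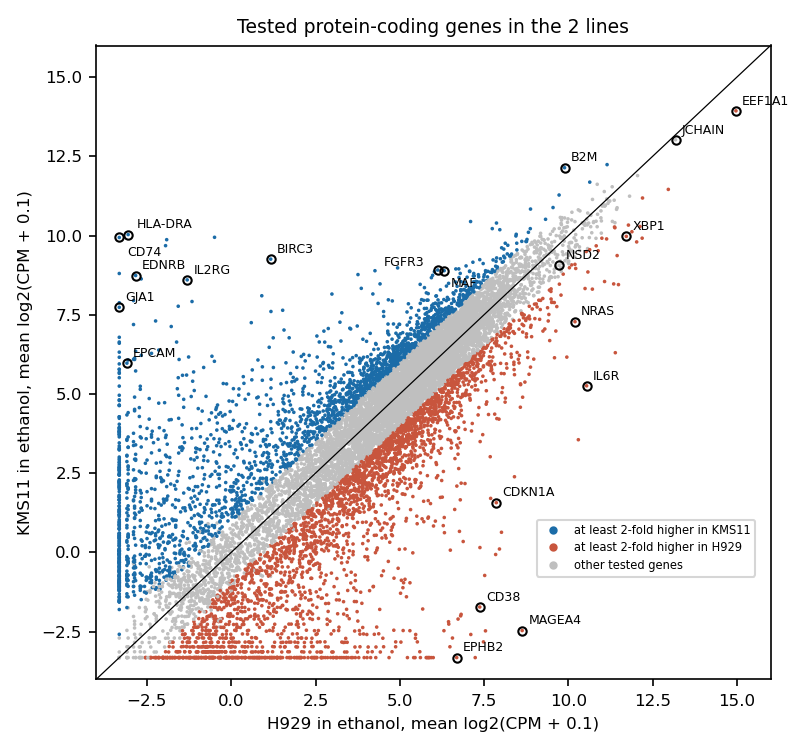
Mean log2(CPM + 0.1) of each of the 13129 tested protein-coding genes in H929 (x axis) against KMS11 (y axis), 2 ethanol libraries each. Blue points are the 2290 genes at least 2-fold higher in KMS11 and red points the 2848 at least 2-fold higher in H929, and the columns of points along each axis are genes near 0 in the other line.

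The line difference was read again in the 4 fluvastatin libraries, which hold the same lines. There 9542 genes (72.7%) passed the threshold, and 7405 genes passed in the same direction in both treatments, which is 78.3% of the ethanol calls and 77.6% of the fluvastatin calls. Of the 5138 genes at least 2-fold different in ethanol, 4931 had the same sign in fluvastatin, 3814 were at least 2-fold different the same way and 24 were at least 2-fold different the opposite way. Across genes the 2 sets of differences had a Pearson r of 0.916 and a Spearman rho of 0.842 (13129 genes, which are not independent replicates).

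Many genes were on in one line and off in the other. A mean of at least 1 CPM in one line with at most 3 counts in each library of the other was found for 278 genes of KMS11 and 235 genes of H929. The 10 largest in KMS11 were CD74, QPCT, THEMIS, GJA1, HLA-DRA, CDH17, EYA2, SLC6A15, ADTRP and SGCE. Apart from HLA-DRA, described with its family, all of these had no count in H929. GJA1, which encodes the gap junction protein connexin 43, had 222 and 204 CPM in KMS11 and was at least 1920-fold higher there, taking 3 counts per library as the floor. THEMIS, a T cell signalling adaptor, had 238 and 232 CPM, and QPCT, which forms N-terminal pyroglutamate, 435 and 459 CPM. The bounds were at least 2120-fold and at least 4020-fold.

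In the other direction the 10 largest differences were ITPRIPL2, EPHB2, MAGEB2, MAGEC1, C16orf54, MAGEB1, H4C4, TBC1D16, AJAP1 and ERCC6L, each without a count in KMS11. EPHB2, an ephrin receptor, had 105 and 101 CPM in H929, at least 1290-fold over KMS11. ERCC6L, a DNA translocase of mitotic chromosomes, had 45.3 and 52.4 CPM, at least 609-fold. H4C4 is 1 of 4 replication-dependent histone genes, with H3C4, H4C1 and H3C1, that were at 0 in KMS11. In H929, H4C4 had 61.6 and 52.5 CPM and H3C4 27 and 11.9 CPM, while H4C1 and H3C1 lay between 9.4 and 11.7 CPM. These histone genes have near-identical copies, so that fragments may be divided between them. GPX1, the main cytosolic glutathione peroxidase, was also nearly absent from KMS11, with 3 counts in each library against 41.7 and 36.9 CPM in H929 (467-fold, adjusted p = 2.91e-09).

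MHC class II separated the lines almost completely. Class II molecules present peptides from the endocytic route to CD4+ T cells, the invariant chain CD74 guards them on the way, HLA-DM loads the peptide, and CIITA is the coactivator that switches the genes on. Of 13 genes of this route, all tested, 12 were at least 2-fold higher in KMS11 and only HLA-DOB was at least 2-fold higher in H929. The antigen presentation list as a whole, 36 of 36 members tested, had 17 members at least 2-fold higher in KMS11 and 6 in H929, against 17.4% and 21.7% of all genes, with a median of 0.73.

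Class II promoters are known for a shared X box and Y box, the latter an inverted CCAAT box, through which RFX, NF-Y and CIITA act. RefSeq promoters (GRCh38.p14, 250 bases before to 50 after the start) matched 11 of the 13 genes, all but HLA-DRA and CIITA. On either strand, GATTGG, the core of the Y box, was found for 8 of the 11 genes and in 15.1% of all 35116 promoters, and AGCAAC, the start of the X box of DR genes, for 5 of 11 and in 12.8%. The 2 words do not overlap. They stood 30 to 35 bases apart in this order in 7 of all promoters (0.0199%), and 3 of those genes were class II genes. Their 130 bases upstream of the start are shown because they carry this pair, with both words in capitals. All 3 lie on the minus strand of chromosome 6, HLA-DRB1 at chr6:32589849-32589978, HLA-DRB5 at chr6:32530288-32530417 and HLA-DOA at chr6:33009592-33009721, and the sequence is that of the reference and not of either line.
HLA-DRB1: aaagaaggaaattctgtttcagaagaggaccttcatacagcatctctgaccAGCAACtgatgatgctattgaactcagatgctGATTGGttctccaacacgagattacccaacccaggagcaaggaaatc
HLA-DRB5: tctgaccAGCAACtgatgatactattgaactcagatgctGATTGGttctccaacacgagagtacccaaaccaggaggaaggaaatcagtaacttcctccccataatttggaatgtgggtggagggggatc
HLA-DOA: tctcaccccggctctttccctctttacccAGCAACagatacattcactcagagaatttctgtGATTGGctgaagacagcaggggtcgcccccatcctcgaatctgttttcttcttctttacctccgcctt
AGCAAC begins at -79, -123 and -101 and GATTGG at -47, -91 and -68 from the start, in that order of genes. HLA-DOB, the gene that went the other way, also holds GATTGG.

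CIITA itself had 36.8 and 32 CPM in KMS11 and 0.374 and 0.36 CPM in H929, a 92.6-fold difference (log2 6.53, adjusted p = 4.57e-08). CD74 had 1013 and 950.5 CPM in KMS11 and no count in H929, which is at least 8840-fold. For HLA-DRA, the α chain of the DR pair, 1071 and 1024 CPM in KMS11 stood against 0 and 1 counts in H929, a ratio of 57000 (95% counting interval 10200 to 2250000). For all 3, both KMS11 libraries lay far above both H929 libraries, in a comparison where 72.0% of all genes tested differed.

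The other chains were lower but showed the same division. HLA-DQA1 had 45.1 and 46.1 CPM in KMS11 (at least 410-fold), HLA-DMB 26.3 and 23.5 CPM (at least 224-fold) and HLA-DOA 10.7 and 7.93 CPM (at least 83.8-fold), all with no count in H929. HLA-DPA1 had 76 and 69.9 CPM against 0.545 and 0.6 CPM (127-fold), and HLA-DMA, a chain of the peptide loader, 41.7 and 42.7 against 0.545 and 0.16 CPM (114-fold). HLA-DRB1 had 153 and 139 CPM in KMS11 and 2 and 0 counts in H929, a ratio of 3980 (95% counting interval 1100 to 32800). HLA-DRB1 and HLA-DRB5 are near-identical and vary between people, so that the division of fragments between them is uncertain. HLA-DOB, the chain that with HLA-DOA restrains HLA-DM, was the exception at 0.626 and 0.492 CPM in KMS11 and 1.6 and 1.52 CPM in H929 (log2 -1.47, adjusted p = 0.0045).

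Class I, which shows cytosolic peptides to CD8+ T cells, was present in both lines and split by gene. B2M, the shared light chain, had 4384 and 4655 CPM in KMS11 and 890.4 and 1004 CPM in H929 (4.77-fold, adjusted p = 2.78e-07) and was among the 10 most abundant protein-coding genes of KMS11 by TPM. HLA-B was 3.46-fold higher in KMS11, at 461 and 472 against 143 and 127 CPM, although reads may be divided between the similar class I genes. The non-classical HLA-E, a ligand of NK cell receptors, went the other way, with 46 and 51.4 CPM in KMS11 and 370.3 and 307 CPM in H929 (log2 -2.80, adjusted p = 2.22e-07). ERAP2, which trims peptides in the ER, was also lower in KMS11 (log2 -2.97), as were HLA-F, MICA and the immunoproteasome subunit PSMB10. NLRC5, the class I counterpart of CIITA, had 26.3 and 31 CPM in KMS11 and 13.3 and 12.4 CPM in H929 (log2 1.15).

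**Figure D2:**
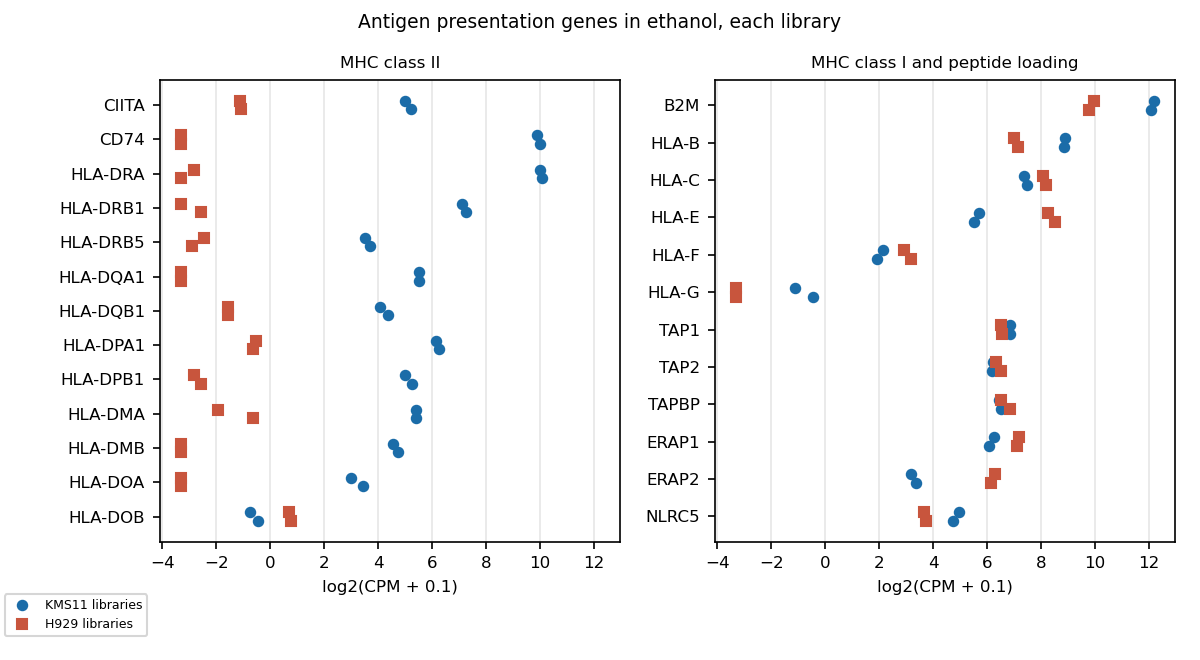
Level of antigen presentation genes as log2(CPM + 0.1) in each ethanol library, with MHC class II and its coactivator CIITA at left and class I and peptide loading at right. Blue circles are the 2 KMS11 libraries and red squares the 2 H929 libraries. The class II genes lie apart by line, except HLA-DOB with the opposite order, while class I genes lie closer together.

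The targets of the shared translocation were on in both lines, at different levels. NSD2 had 112 and 118 TPM in KMS11 and 127 and 112 TPM in H929. On the scale used between lines it had 509.9 and 560 CPM in KMS11 and 902 and 792 CPM in H929 (log2 -0.66, SE 0.10, adjusted p = 0.000156), a difference that did not pass on the TPM scale. FGFR3 had 501 and 463 CPM in KMS11 against 85.9 and 53.7 CPM in H929, 6.89-fold higher (log2 2.78, SE 0.26, adjusted p = 6.35e-06). The neighbours of NSD2, LETM1 and TACC3, were near equal (log2 -0.02 and 0.40), and only TACC3 passed.

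MAF, a transcription factor activated by another class of IGH translocation, was 5.97-fold higher in KMS11 at 510 and 440.5 CPM, against 82 and 77.3 CPM in H929 (log2 2.58, adjusted p = 4.39e-08). MYC was higher in KMS11, at 351 and 393 against 155 and 137 CPM (log2 1.35). Of the D cyclins, CCND2 was the main one in both lines with 1886 and 2025 CPM in KMS11 and 2103 and 2242 CPM in H929, which did not pass the test (adjusted p = 0.151). CCND3 was higher in H929 (13.5 and 12.2 against 49.8 and 39.9 CPM, log2 -1.80) and so was CCND1 by less than 2-fold (log2 -0.95). Of the 14 tested members of this list of 16, 3 were at least 2-fold higher in KMS11 (FGFR3, MAF and MYC) and 2 in H929 (CCND3 and IRF4). Among all genes tested the shares were 17.4% and 21.7%.

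Genes associated with MAF in MM did not all follow MAF. Of 13 tested members of 14, 5 were at least 2-fold higher in KMS11, with SESN3 at 61.5 and 53 against 7.76 and 7.08 CPM and TLR4 at 8.35 and 9.24 against 1.67 and 2.32 CPM, and CX3CR1 and NTRK2 among the others. ITGB7, the integrin β7 that MAF is known to raise, was lower in KMS11 at 1109 and 1389 CPM against 5219 and 3727 CPM (log2 -1.84, adjusted p = 1.04e-05). CCR1, a chemokine receptor, was likewise lower, at 41.9 and 43.4 against 185 and 189 CPM. The list's median was 0.10.

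Transcription factors of B cells and plasma cells moved both ways, with 14 of 32 tested members (34 listed) at least 2-fold higher in KMS11 and 12 in H929. IRF8, a factor of B cells and myeloid cells, had 16 and 14.6 CPM and no count in H929 (at least 138-fold), and SPIB had 10.4 and 9.27 CPM against 0 and 1 counts. TCF4, the basic helix-loop-helix factor E2-2, had 505 and 505 CPM in KMS11 against 30.1 and 30.9 CPM (16.5-fold), and ETS1 331 and 314 against 12.8 and 16.1 CPM (22.4-fold). POU2F2 (OCT2), BCL6, BHLHE41, RUNX3 and ZEB2 were also higher in KMS11, at log2 5.24, 4.29, 4.29, 3.51 and 3.20.

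Several plasma cell regulators were higher in H929. XBP1, the driver of the secretory programme, had 3365 and 3384 CPM in H929 and 978 and 1035 CPM in KMS11 (log2 -1.75, adjusted p = 8.35e-08). IRF4, on which MM cells depend, had 2027 and 2057 against 902 and 1031 CPM, and PRDM1 (BLIMP1) 404 and 379 against 179.9 and 193 CPM (log2 -1.07). The Ikaros genes parted, since IKZF1 was lower in KMS11 (11.8 and 11.7 against 88.1 and 84.1 CPM) and IKZF3 higher (748 and 775 against 280 and 263 CPM). Both are degraded through CRBN, the receptor of lenalidomide, which had 37 and 35.3 CPM in KMS11 and 33.8 and 37 CPM in H929 (adjusted p = 0.822). Among other B cell and plasma cell factors of this list, MEF2C, RUNX2, BACH2 and KLF2 were higher in H929. Their log2 values were -2.99, -3.06, -2.70 and -4.85, KMS11 minus H929.

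Surface antigens, several of them drug targets in MM, differed in both directions. Of 34 tested members of 42, 9 were at least 2-fold higher in KMS11 and 16 in H929, with a median of -0.54. On the TPM scale, where the median of all genes was 0.315, the counts turned to 11 and 7 and the median was 0.00. CD38, the target of daratumumab, had 165 and 166 CPM in H929 and 0.104 and 0.301 CPM in KMS11, an 810-fold difference (log2 -9.66, SE 0.20, adjusted p = 5.77e-10). The orphan receptor GPRC5D had 66 and 61.9 against 1.2 and 2.16 CPM (38.1-fold), and NCAM1 (CD56), an adhesion molecule of MM cells, 128 and 107 against 0.913 and 1.42 CPM (101-fold). KMS11 was thus close to 0 for CD38 and NCAM1.

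Other targets were present in both lines at unequal levels. SLAMF7 had 473 and 415 CPM in H929 and 73.3 and 87 CPM in KMS11 (5.54-fold), SDC1 753 and 621 against 183 and 181 CPM (3.77-fold) and TNFRSF17 712 and 725 against 229 and 282 CPM (2.81-fold). CD48, a SLAM family ligand, had 1017 and 969.5 against 65.5 and 77.7 CPM (13.9-fold), and the hyaluronan receptor CD44 359 and 310.2 against 61.3 and 66.7 CPM (5.23-fold). In KMS11 the higher genes were CD9, a tetraspanin, at 72.9 and 70.7 against 0.272 and 0.36 CPM, CD47, the signal that restrains phagocytosis, at 317 and 361 against 79.5 and 87.5 CPM, and TNFRSF13B (TACI), at 10.7 and 11.6 CPM against 2 and 0 counts. CD86, KIT, CD82, CD70 and CD99 were also higher there.

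**Figure D3:**
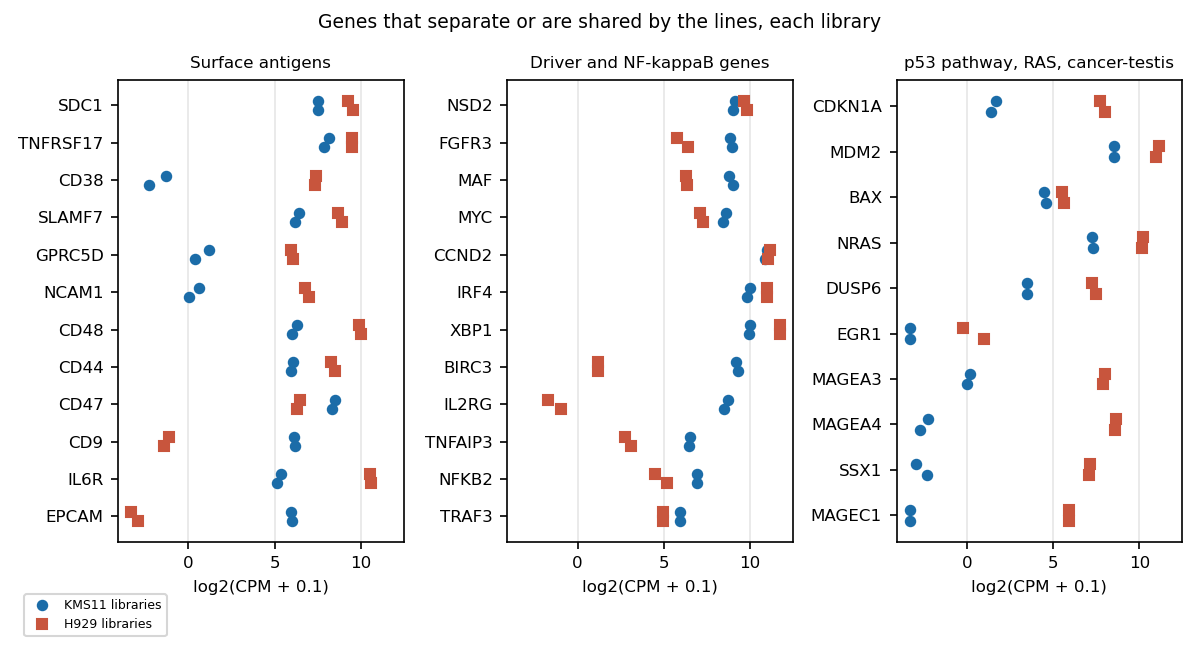
Level of 34 genes as log2(CPM + 0.1) in each ethanol library, in 3 panels for surface antigens, driver and NF-κB genes, and p53 pathway, RAS and cancer-testis genes. Blue circles are the 2 KMS11 libraries and red squares the 2 H929 libraries. CCND2 is near equal in both lines, whereas CD38, IL2RG, EPCAM, MAGEA4, SSX1 and MAGEC1 are close to 0 in one of them.

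The NF-κB pathway list held more members higher in KMS11. In this pathway IKK kinases, or NIK (MAP3K14) in the alternative arm, release the factors RELA, RELB, NFKB1 and NFKB2, whose targets include their own inhibitors. Of 33 tested members of 34, 15 were at least 2-fold higher in KMS11 and 4 in H929, with a median of 0.93. BIRC3 (cIAP2), a target and an inhibitor of NIK, had 634 and 589 CPM in KMS11 and 2.14 and 2.16 CPM in H929 (284-fold, adjusted p = 5.77e-10). TNFAIP3 (A20), a feedback inhibitor, had 86.9 and 92.1 against 8.51 and 6.72 CPM (11.7-fold).

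Members of the alternative arm were among the 15. NFKB2 had 121 and 121 against 36.8 and 22.1 CPM (log2 2.03, adjusted p = 3.88e-05), RELB 27.2 and 25.4 against 7.45 and 5 CPM and MAP3K14 16.4 and 17.2 against 6.33 and 5.24 CPM. The negative regulators TRAF3 and CYLD were also higher in KMS11, at log2 1.0 and 1.43. Members higher in H929 included IKBKG, the regulatory subunit of IKK, TRAF6 and CD40, at log2 -2.04, -1.09 and -3.31. CD40 rested on 4 and 0 counts in KMS11 and 21 and 10 counts in H929. Without the 2-fold limit, 19 members of the list differed toward KMS11 and 9 toward H929.

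Of 30 tested cytokines and their receptors (41 listed), 17 were at least 2-fold higher in KMS11 and 8 in H929. The list's median was 1.93, with 0.69 on the TPM scale and 1.06 in fluvastatin. LTB, the membrane lymphotoxin, had 65.5 and 57.8 CPM in KMS11 and no count in H929 (at least 555-fold), and the interferon-inducible chemokine CXCL10 had 16.2 and 11.4 CPM and no count (at least 124-fold). IL2RG, the common γ chain of several interleukin receptors, had 358 and 418 against 0.408 and 0.2 CPM (1230-fold), and IL21R 55.1 and 59 against 1.84 and 2.72 CPM. IL10 had 28.1 and 29.6 CPM in KMS11 and 0.17 and 0 CPM in H929.

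Receptor genes for IL-6, the main growth factor of MM cells, went both ways. IL6ST, the chain that signals with IL6R, was higher in KMS11 (log2 2.53, adjusted p = 8.48e-07), and IL6R was higher in H929. IL6R had 1528 and 1455 CPM in H929 and 35.6 and 40.6 CPM in KMS11, 39.1-fold apart (log2 -5.29, adjusted p = 6.23e-10). CCL3, the chemokine MIP-1α known from myeloma bone disease, had 109 and 89.1 against 1.91 and 3.01 CPM (40.3-fold), and CXCR3 10 and 11.7 against 0.313 and 0.356 CPM.

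Interferon-stimulated genes divided within the list. Of 39 tested members of 44, 10 were at least 2-fold higher in KMS11 and 16 in H929, with a median of -0.71 (-0.02 on the TPM scale). In fluvastatin the same list stood at 5 and 23. IFIH1 (MDA5), an RNA sensor, had 101 and 91.9 CPM in KMS11 and 19.5 and 19.3 CPM in H929 (4.97-fold). PARP9, PARP14, EPSTI1, IFIT5 and SAMD9L were higher in KMS11 too, at log2 5.16, 3.35, 3.26, 2.99 and 2.33. Members higher in H929 included effectors against viruses. OAS2 had 86.4 and 73.2 against 2.01 and 2.08 CPM (39-fold), MX1 81.9 and 69.5 against 5.09 and 4.35 CPM (16-fold) and OAS1 18.2 and 14 against 0.992 and 0.957 CPM. IFIT1, IFIT2 and IFIT3 did not pass the test (log2 0.49, 0.28 and 0.25). IFITM1 had 8.24 and 7.4 CPM in H929 and 1 and 0 counts in KMS11. IFITM2 was called as well, but rested on 29 counts in one H929 library and none in the other, and reversed to log2 2.09 without the former.

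The list of the p53 pathway and regulators of the cell cycle divided as well. Several target genes of the pathway were lower in KMS11. CDKN1A (p21), the inhibitor of cyclin-dependent kinases, had 257 and 209 CPM in H929 and 2.56 and 3.17 CPM in KMS11 (81.3-fold), and MDM2, a ubiquitin ligase and feedback gene of the pathway, 2037 and 2281 against 373 and 376 CPM (5.76-fold). PHLDA3 had 17.1 and 15.8 CPM against 1 and 0 counts. FDXR, BBC3 (PUMA), DDB2, TNFRSF10B and SESN2 were lower in KMS11 at log2 -3.81, -3.70, -3.26, -2.58 and -1.86.

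Other members of that list were higher in KMS11. FAS, a death receptor and also a target of the pathway, had 288 and 282 CPM in KMS11 and 16.7 and 19.9 CPM in H929 (15.6-fold, adjusted p = 4.57e-09). The inhibitors CDKN2A, CDKN2B, CDKN1B and CDKN1C were higher in KMS11 at log2 1.80, 2.65, 1.62 and 3.26, and CCNE2, a partner of CDK2, had 231 and 259 against 23.4 and 31.3 CPM. Of 36 tested members of 38, 9 were at least 2-fold higher in KMS11 and 15 in H929, with a median of -0.46 (-0.09 on the TPM scale).

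BCL2 family members differed less at the top of the range. The survival gene MCL1 had 653 and 587 CPM in KMS11 and 979 and 1013 CPM in H929 (log2 -0.68). BCL2 had 76.7 and 68.4 CPM in KMS11 and 73.9 and 77.3 CPM in H929 and did not pass the test (adjusted p = 0.599). BCL2L1 (BCL-XL) was higher in KMS11 at log2 1.0. Of 17 tested members of 19, 1 was at least 2-fold higher in KMS11, the BH3-only gene PMAIP1 (NOXA) at 25.2 and 15 against 3.81 and 4.84 CPM, and 6 in H929 (4 with the GC trend removed). BCL2L2, a survival gene, had 14.9 and 13.1 CPM in H929 against 0.0522 and 0.082 CPM, and the pro-death genes HRK, BAK1 and BAX were higher in H929 at log2 -3.01, -1.11 and -1.07, KMS11 minus H929.

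Members of the RAS-MAPK route, which runs from receptor kinases through RAS and RAF to ERK, were 5 at least 2-fold higher in KMS11 and 14 in H929 among 45 tested of 47, with a median of -0.29 (0.16 on the TPM scale, under the 0.315 of all genes). NRAS had 1150 and 1200 CPM in H929 and 157 and 154 CPM in KMS11 (7.55-fold, adjusted p = 1.22e-08). FGFR2 was higher in KMS11 with FGFR3, at 43.6 and 39.8 against 3.2 and 3.56 CPM, and FGFR1 was higher in H929 (7.73 and 7.68 against 1.12 and 1.09 CPM).

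Genes that ERK signalling is known to induce divided. DUSP6, an ERK phosphatase and feedback gene, had 182 and 152 CPM in H929 and 11.1 and 11.3 CPM in KMS11 (14.9-fold, adjusted p = 4.43e-09), and DUSP5 812 and 729 against 74.8 and 66.3 CPM (10.9-fold). The early response factors FOSL1, at 3.95 and 3.52 CPM in H929 (at least 46.6-fold), and EGR1, at 1.91 and 0.76 CPM (at least 16.6-fold), had no count in KMS11. ETV5, IER2, IER3 and FOSL2 were lower in KMS11 at log2 -2.42, -3.76, -3.68 and -3.08. SPRY1, another feedback gene, was higher in KMS11 (21 and 21.7 against 6.54 and 5.56 CPM), as were MYC, ETV1 and SPRED1 (log2 1.35, 0.86 and 0.75), and FOS, JUN, DUSP1, DUSP2, SPRY2 and PHLDA1 did not pass the test.

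Cancer-testis antigens, normally limited to the germ line, were mostly higher in H929. Of 25 tested members of 30, 20 were at least 2-fold higher in H929 and 1, TEX14, in KMS11. The median was -7.59, or -6.56 with genes at 0 in one line set at their bound. Since the filter kept a gene when 1 group was high, the 5 members not tested were low in both. MAGEA4 had 393 and 399.5 CPM in H929 and 0.0522 and 0.109 CPM in KMS11, SSX1 135 and 141 against 0.104 and 0.0273 CPM, and MAGEA3 241 and 256 against 0.913 and 1.04 CPM (254-fold). MAGEC1 had 60.5 and 61.5 CPM and MAGEB2 60.1 and 67 CPM in H929, with no count in KMS11. Members of the MAGEA, SSX and CT45 families are near-identical, and their fragments may be divided between copies.

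**Figure D4:**
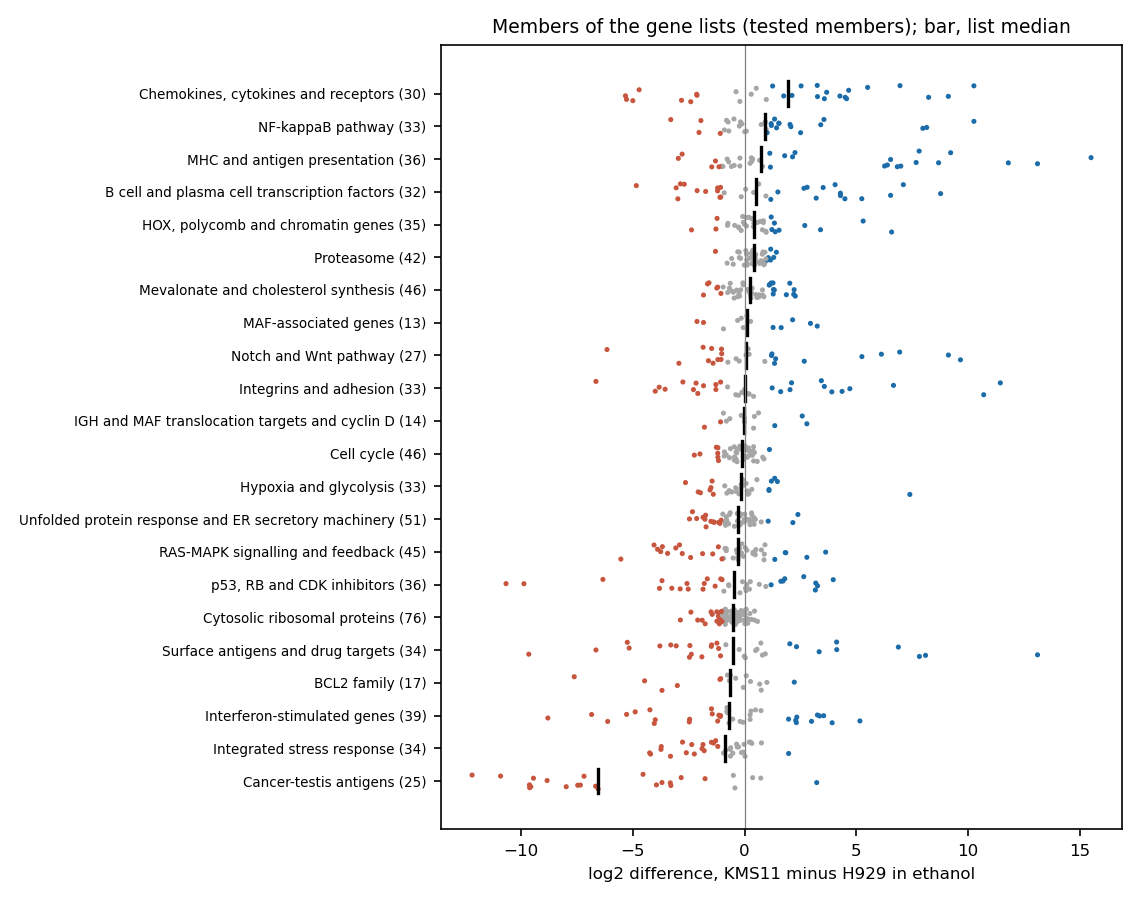
Differences of the tested members of each gene list with 10 or more tested members, as log2 KMS11 minus H929 in ethanol, with genes at 0 in one line set at their bound. Points at 1 or above are blue and at -1 or below red, the black bar is the list median, and the number of tested members stands beside each name. Medians run from 1.93 for cytokines and receptors to -6.56 for cancer-testis antigens.

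The integrated stress response (ISR) lets ATF4 raise amino acid synthesis and transport genes. Of its 34 tested members (37 listed), 16 were at least 2-fold higher in H929 and 1, the kinase gene EIF2AK1, in KMS11. Its median was -0.90 (-0.27 on the TPM scale). ATF4 itself had 282 and 249 CPM in KMS11 and 425 and 342 CPM in H929 (log2 -0.53, adjusted p = 0.00353), a call that was lost with the GC trend removed and on the TPM scale. ALDH1L2, of mitochondrial folate metabolism, had 18.6 and 18.1 against 263 and 229 CPM (13.4-fold), and PHGDH and PSAT1, of serine synthesis, were lower in KMS11 at log2 -3.73 and -1.91. DDIT3 (CHOP) was lower in KMS11 at log2 -0.84, except on the TPM scale where it did not pass, and PPP1R15A (GADD34) was lower at log2 -1.20, and ATF3 did not pass the test (adjusted p = 0.208).

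The unfolded protein response and ER machinery, 51 of 51 members tested, had 3 members at least 2-fold higher in KMS11 and 13 in H929 (median -0.28, or 0.21 on the TPM scale). Among all genes tested the shares were 17.4% and 21.7%. ERN1 (IRE1), the sensor that splices XBP1, had 195 and 185 CPM in H929 and 31.7 and 36.8 CPM in KMS11, MZB1, a chaperone of antibody chains, 435 and 315 against 72.8 and 75.8 CPM, and TXNDC5, a disulfide isomerase, 8122 and 7893 against 2598 and 3025 CPM. EIF2AK3 (PERK), another ER sensor, had 636 and 628 against 126 and 139 CPM. HSPA5 (BiP), the main ER chaperone, was near equal at 491 and 515 CPM in KMS11 and 434 and 419 CPM in H929, and its call (adjusted p = 0.0289) was lost without any 1 of the 4 libraries.

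Of 42 proteasome genes, all tested, 6 were at least 2-fold higher in KMS11 and 1 in H929 (median 0.40). The former was not above the 17.4% of all genes tested. On the TPM scale, where the median of all genes was 0.315, the counts were 18 and 0 (median 0.93). In fluvastatin they were 15 and 0 (median 0.71). PSMD2, a base subunit, had 602 and 654 against 243 and 226 CPM. None of the 76 cytosolic ribosomal protein genes was at least 2-fold higher in KMS11 and 17 were so in H929, the latter near the 21.7% of all genes tested (median -0.50, or 0.05 on the TPM scale against 0.315 for all genes). The largest was RPS28, at 538 and 468 against 62.6 and 74.4 CPM. RPL26 followed, at 1581 and 1779 against 329 and 306 CPM. Elongation factor EEF1A1 had 31510 and 32830 CPM in H929 and 15590 and 15780 CPM in KMS11. Many of these genes have processed copies, and fragments may be divided between them.

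Genes of the mevalonate and cholesterol pathway, the route that statins block, were 12 at least 2-fold higher in KMS11 and 6 in H929 among 46 tested of 48 (9 and 2 with the GC trend removed), with a median of 0.23. The shares of all genes tested were 17.4% and 21.7%. HMGCS1, an early enzyme of the route, had 175 and 173 CPM in KMS11 and 72.1 and 71.3 CPM in H929 (2.43-fold), IDI1, the isomerase of the isoprenoid unit, 268 and 277 against 62.1 and 72.3 CPM (4.06-fold), and GGPS1, the geranylgeranyl diphosphate synthase, 59.4 and 57 against 11.3 and 12.9 CPM (4.81-fold). PMVK, a later kinase of the route, and both subunits of the Rab prenylating enzyme, RABGGTA and RABGGTB, were higher in H929, at log2 -1.60, -1.25 and -1.21.

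Of the 46 cell cycle genes, 1 was at least 2-fold higher in KMS11, CDK1 at 274 and 264 against 110.2 and 139 CPM, and 7 in H929, with AURKB at 65.9 and 57.9 against 13.1 and 12.9 CPM and the replication licensing factor CDT1 at 56.7 and 44.2 against 13.3 and 11.9 CPM. The shares of all genes tested were 17.4% and 21.7%. The median of the list was -0.14 (0.41 on the TPM scale). In the fluvastatin libraries the same lists stood at 17 and 2 for the cell cycle, with a median of 0.60, and at 21 and 0 for the mevalonate pathway, with a median of 0.85. The change of a list between treatments was not tested.

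Glycolysis and hypoxia genes went both ways, with 6 of 33 tested members (34 listed) at least 2-fold higher in KMS11 and 7 in H929, shares near those of all genes tested (17.4% and 21.7%). The glucose transporter SLC2A3 (GLUT3) had 19.1 and 18.3 CPM in KMS11 and no count in H929 (at least 168-fold). GAPDH and LDHB were higher in KMS11 (2.13-fold and 2.54-fold). PDK1, a kinase that inhibits pyruvate dehydrogenase, was higher in H929 at 403 and 487 against 67.6 and 74.3 CPM (6.27-fold).

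Adhesion molecules and developmental pathways distinguished the lines in both directions. Of 33 tested integrin and adhesion genes (37 listed), 13 were at least 2-fold higher in KMS11 and 12 in H929. EPCAM, an epithelial adhesion molecule, had 64.1 and 61.3 CPM in KMS11 and 1 and 0 counts in H929, and NRCAM, a neuronal one, 68 and 68 CPM against 1 count in each. ICAM1 had 123 and 147 against 12.2 and 10.5 CPM (11.9-fold) and MCAM 29 and 27.6 against 0.272 and 0.28 CPM. ITGA4, the α chain of VLA-4 that binds MM cells to marrow stroma, was higher in H929 (684 and 713 against 102 and 104 CPM, 6.79-fold). KRT18, CDH1 and FN1 were higher in KMS11 as well, at log2 4.01, 3.90 and 3.88, so that 6 of 9 tested epithelial and stromal markers (19 listed) were at least 2-fold higher there and none in H929. Their summed level, mostly VIM, was 447 and 446 TPM in KMS11 and 489 and 526 TPM in H929, and 12 of the 19 stayed under 1 TPM in all 4 libraries.

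Among 27 tested Notch and Wnt genes (36 listed), 10 were at least 2-fold higher in each line (9 and 6 with the GC trend removed). The Wnt ligand WNT5A had 57.4 and 56.8 CPM in KMS11 against 0.374 and 0.56 CPM in H929, and WNT5B 76.2 and 79.3 against 0.0681 and 0.12 CPM. ROR2, a receptor of WNT5A, had 23.8 and 21.7 CPM against 1 count in each H929 library. DKK1, a Wnt inhibitor tied to myeloma bone lesions, was higher in H929 at 4.05 and 4.44 against 0.522 and 0.574 CPM, with HES1, a Notch target, at 3.95 and 4.28 against 0.0522 and 0.0547 CPM. HOX genes were low, and HOXA10 at 4.64 and 4.13 CPM and HOXB9 at 7.7 and 7.17 CPM were found in KMS11, with no count for HOXA10 and 0.034 and 0.12 CPM for HOXB9 in H929. Of 35 tested HOX, polycomb and chromatin genes (44 listed), 8 were at least 2-fold higher in KMS11 and 3 in H929. Among all genes tested the shares were 17.4% and 21.7%.

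Both lines had abundant counts assigned to κ light chain genes and almost none assigned to heavy chain genes. Whether heavy chain transcripts were missed in alignment or quantification was not tested. The TPM values of this paragraph show which genes were present and were not used to compare the lines. IGKC, the κ constant gene, had 17426 and 18640 TPM in KMS11 and 9111 and 6970 TPM in H929. IGKV3-15 was the most abundant κ variable gene in all 4 libraries, at 10687 and 12120 TPM in KMS11 and 7229 and 5492 TPM in H929, which is 91.6% to 95% of all κ variable TPM in KMS11 and 99.3% in H929. IGKV3D-15, a near-identical copy, had 304 and 768 TPM in KMS11, so that the division between the 2 is uncertain. IGKV1-37 had 212 and 281 TPM in KMS11 and 0 in H929. The λ constant gene IGLC1 had 101 and 115 TPM in KMS11 and 447 in both H929 libraries, with no λ variable gene above 2.26 TPM. No IGH constant gene exceeded 6 counts in a KMS11 library or 24 counts in an H929 library, where the highest was IGHE. IGLL5, which shares sequence with IGLC1, had 25.9 and 32.3 CPM in KMS11 and 313 and 249 CPM in H929.

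The differences were not spread evenly over the chromosomes. Chromosome 13 had a median of 0.97, with 106 of 224 genes at least 2-fold higher in KMS11 and 7 in H929, and chromosomes 21 and 7 followed with medians of 0.58 and 0.47. Among the autosomes and X, medians were lowest on chromosome 19 (-0.67), where 371 of 919 genes were at least 2-fold higher in H929, on chromosome 11 (-0.53) and on chromosome 22 (-0.40). Gene GC content moved with part of this, since chromosome 19 has a median GC content of 57.9% and chromosome 13 of 42.0%. With the trend of each library with GC content removed, the medians were 0.69 for chromosome 13, 0.52 for 21, 0.43 for 7, -0.43 for 11, -0.11 for 19 and -0.04 for 22. In the fluvastatin libraries they were 0.81, 0.64, 0.47, -0.37, -0.17 and -0.07.

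Blocks of about 50 neighbouring tested genes showed narrower regions. Of 261 blocks, 8 had a median of at least 1 and 16 a median of at most -1. With the GC trend removed these were 6 and 5. The 3 lowest medians were -2.07, -1.72 and -1.71. The block at -1.72 was that at the start of chromosome 11, from BET1L to PHLDA2 (positions 167784 to 2929420, GRCh38), where 39 of 49 genes were at least 2-fold higher in H929, and its median was -1.12 with the GC trend removed and -1.07 in fluvastatin. Medians of -1.71 and -2.07 were those of 2 adjoining blocks on chromosome 17, from SPNS3 at position 4433940 to MAP2K4 ending at position 12143830 (GRCh38). In each of them 40 of 52 genes were at least 2-fold higher in H929 and 2 in KMS11, and their medians were -1.73 in both with the GC trend removed. A further 2 low blocks held their value without the trend, on chromosome 1 from CD53 to WARS2 (positions 110871188 to 119140654, median -1.48, and -1.72 without the trend), where NRAS lies, and on chromosome 5 from PCDHA9 to STK32A (140847772 to 147387855, -1.58 and -1.50). The first 5 blocks of chromosome 19, in contrast, had medians of -1.28 to -1.66 that became -0.46 to -0.92.

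The highest block lay at the end of chromosome 19 from ZNF304 to MZF1 (positions 57351271 to 58573575), a cluster of zinc finger genes, where 35 of 51 genes were at least 2-fold higher in KMS11 and 2 in H929 (median 1.73, and 1.6 without the GC trend). A block of chromosome 12 from DDX47 to TMTC1 (12813316 to 29784759) had a median of 1.40 (1.13 without the trend), and the 2 last blocks of chromosome 13 had 1.09 and 1.25 (0.88 and 1.08). Runs of at least 3 neighbouring detected genes with at most 3 counts in each library of one line and at least 30 in each of the other were rare. H929 had 3 such low runs, KRT7, KRT86 and KRT81 on chromosome 12, POGLUT2, BIVM-ERCC5 and BIVM on chromosome 13, and HLA-DRA, HLA-DRB5, HLA-DRB1 and HLA-DQA1 on chromosome 6. KMS11 had 1, ZNF112, ZNF285 and ZNF229 on chromosome 19. DNA copy number was not measured here.

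**Figure D5:**
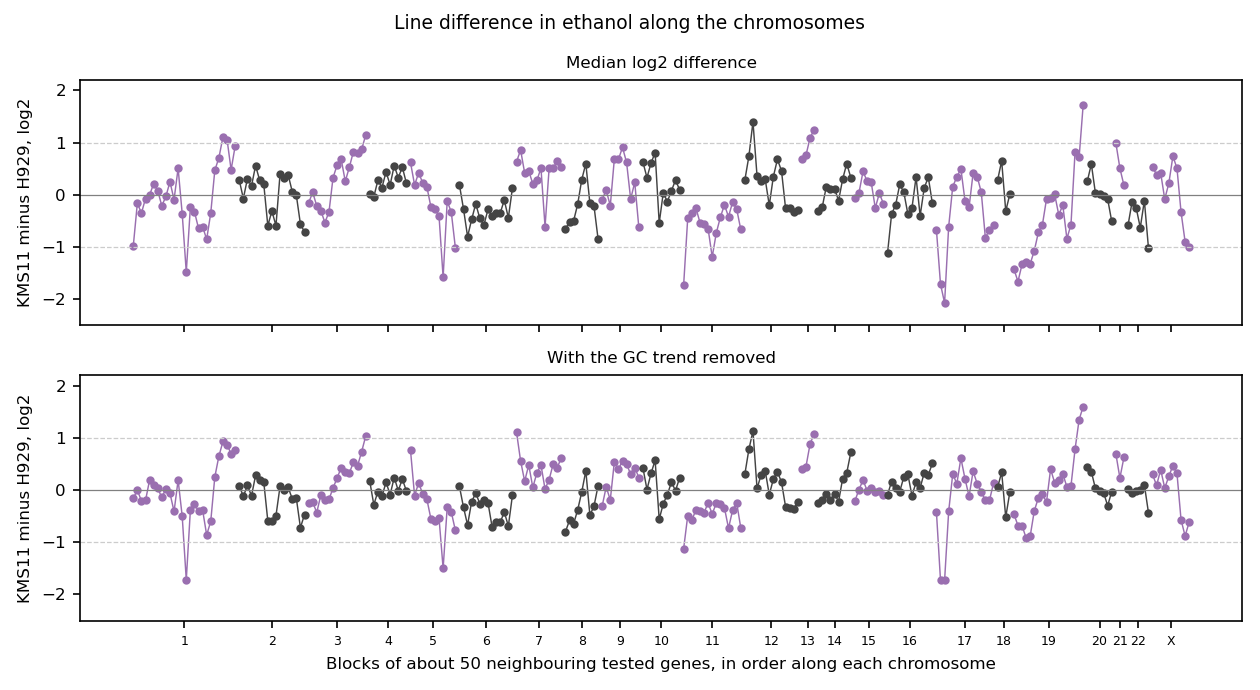
Median log2 difference, KMS11 minus H929 in ethanol, of each block of about 50 neighbouring tested genes in order along chromosomes 1 to 22 and X, as fitted (top) and with each library's GC content trend removed (bottom). Each point is 1 block, colours alternate by chromosome, and dashed lines mark 1 and -1. The low pair on chromosome 17 and the high block at the end of chromosome 19 stand in both panels.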

How the data were processed

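Ribosome-depleted total RNA of 8 cultures was sequenced, with 2 replicates of each line and treatment. Per the labels and the study's methods, reads were aligned to GRCh38 with STAR 2.5.2b and genes quantified with RSEM 1.3.0. The authors deposited expected counts (fragments assigned to each gene, not normalised) and TPM (scaled by effective length over all annotated genes). The FPKM column was not used. Of 58219 genes listed, 57392 had an identifier in GENCODE 44, from which names and positions came, and 19683 of these were protein coding.

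Expected counts were rounded to whole numbers. Protein-coding genes kept by filterByExpr (minimum count 10, minimum total 15) were scaled by TMM and fitted with edgeR 4.0.16 (R 4.3.3) to the means of the 4 groups of line and treatment, with 4 residual degrees of freedom. The quasi-likelihood test (two-sided) of KMS11 minus H929 in ethanol was adjusted by Benjamini-Hochberg over all genes tested, with a threshold of 0.05, and 2-fold calls added a log2 size of 1. A library total ranged from 26702515 to 41910446 over the 8 libraries. The code was tested on simulated data. Ratios against 1 to 3 counts in all over both libraries of a line carry an exact 95% interval, and bounds against 0 use 3 counts per library; both cover counting error only. Replicates are numbered in the labels and are biological replicates by the study's methods. P-values thus measure the spread between replicates of the same line and treatment, pooled over the 4 groups of these 2 lines. Deviations of same-numbered libraries correlated at -0.123, and the numbers were not taken as pairs.

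The comparison and the 27 gene lists (901 genes found, 774 tested) were chosen with earlier results of these data known, and lists are described by counts and medians. Named by rule were all translocation list members, the 10 largest differences each way with a mean of at least 10 CPM in the higher line, the 10 highest TPM of each line, up to 10 genes each way with at most 3 counts in one line, up to 10 members of each list each way with 2-fold calls, and genes the study names. BCL2, BCL2L1, MCL1, CRBN, CYLD, TRAF3, HLA-B, HLA-C, HLA-DMA, NLRC5, IKZF3, PRDM1, POU2AF1, SDC1, TNFRSF17, IL6ST, VIM, IFIT1, IFIT2, IFIT3, ETV1, SPRED1, FOS, JUN, DUSP1, DUSP2, SPRY2 and PHLDA1 fall outside the rule and were chosen after their values were seen. Some genes that the rule names are not reported here. Chromosome blocks are of about 50 consecutive tested genes. Alternatives were DESeq2 1.42.0, limma 3.58.1 on log2(TPM + 1), other scalings, filters, thresholds, sample sets, GC content and length trends removed, and thinned counts.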

Additional observations from a re-analysis of the deposited data

Results flagged for a closer look

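Of the genes named by rule, 2 were called at least 2-fold one way in ethanol and at least 2-fold the other way in fluvastatin. Both also passed a test of the interaction (edgeR's quasi-likelihood test, adjusted over all genes tested). Named genes that passed the interaction test without such a change of direction were not listed. PFKFB4, a regulator of glycolysis, was lower in KMS11 in ethanol (log2 -1.46) and higher in fluvastatin (log2 1.18), and the difference of the differences was 2.64 (adjusted p = 0.00362). In ethanol it had 1.12 and 1.45 CPM in KMS11 and 4.15 and 2.88 CPM in H929. ITGB3, the integrin β3 chain, had log2 4.11 in ethanol and -3.75 in fluvastatin, a difference of -7.86 (adjusted p = 0.0106). Its ethanol values rest on 3 and 2 counts in KMS11 and none in H929, and its fluvastatin values were under 1 CPM in all 4 libraries. Both genes were picked for opposite calls in the same libraries that the interaction test used. Passing it was thus close to fixed by the choice, and all 24 genes with opposite 2-fold calls did so.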

How the results depend on the processing

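The number of genes that differed was 9454 and stayed between 8970 and 10045 under other scalings, DESeq2, the 4 ethanol libraries alone, the replicate block, limma on TPM and thinned counts, was 8629 with the stricter and 9746 with no filter on low counts, 11237 over all annotated genes, 7938 at an adjusted p under 0.01 and 9996 with the GC trend and 10029 with GC and length trends removed, and was 3737 when tested against a log2 change of 1 (glmTreat). On the TPM scale, 811 genes were at least 2-fold higher in H929. Leaving out 1 library gave 8061 to 8811 genes, 2197 to 2362 of them at least 2-fold higher in KMS11 and 2553 to 2990 in H929, and 353 to 391 list members. With a mean of at least 1 TPM as the sign of detection, 878 genes of KMS11 and 574 of H929 were detected in 1 line alone. In blocks of 100 genes, 13 of 130 had a median of at least 1 in size (10.0%), against 24 of 261 (9.20%). With the replicate block 10045 genes were called, and of the genes named by rule only ITGB3 lost its call (adjusted p = 0.0589). With the numbers crossed, an alternative chosen after seeing the data, 9119 genes were called.

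Among single genes, IFITM2 reversed without H929 replicate 1 (log2 2.09, adjusted p = 0.531) and had -6.94 without KMS11 replicate 1. RPS24 (0.13) and ATF4 (0.0036) reversed on the TPM scale, RPS3A (-0.073), JAG2 (0.050) and HSPA5 (-0.0084) with the GC trend removed, and RPS3A (-0.12), JAG2 (0.072), NOTCH1 (0.033) and HSPA5 (-0.045) with GC and length trends removed. The cause was not tested. RPS3A, HSPA5, ITGB3 and ITGA9 lost their call whichever library was left out, and SMARCA1, CD37, TP63, DLL4, NRARP, CD7, CD3G, RPL39, WWOX, USP18 and SREBF1 without at least 1 library. With the GC trend removed, 3985 of 4594 calls of at least 2-fold were also among the 5138 above. The counts of 2-fold list members, taken for each list and direction, were labelled as moved past a set ratio. On the TPM scale 34 of these counts moved and 20 did not. With glmTreat 8 moved, and with the GC trend removed 5. List counts moved with 1 library as well, to 4 in place of 2 translocation list members at least 2-fold higher in H929 (without H929 replicate 2), 0 and 2 in place of 1 cell cycle gene higher in KMS11 (without H929 replicate 1 and replicate 2), 2 in place of 1 BCL2 family gene higher in KMS11 (without KMS11 replicate 1 or H929 replicate 1) and 1 in place of 2 T and NK cell markers higher in H929 (the same libraries). With 2 cultures per line, genes at a few counts are the least certain.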
